A study of Mus musculus with 6 samples.

Results

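Replication-dependent histone genes supply the histones that package newly made DNA. They sit in clusters, have no introns, and give mRNAs that mostly end in a stem-loop bound by SLBP in place of a poly(A) tail. In cycling cells these mRNAs accumulate in S phase and are degraded when DNA synthesis stops, and some of the genes can also give polyadenylated transcripts. H2A, H2B, H3 and H4 form the core of the nucleosome, and H1 binds the linker DNA between nucleosomes. This report describes 10 clustered histone genes, H1f2, H1f4, H1f6, H2ac19, H2aw, H2bc18, H2bc21, H2bc22, H3c7 and H3c11. H1f6, a testis gene, is not typical of replication-dependent histones but is counted with the others. The 10 were chosen by name, and every probe set whose only annotated gene symbol is one of them was taken. That gave 15 probe sets of 45037 and 10 genes of 18193.

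RNA came from V720 cells, a mouse breast cancer line of mammary epithelium. One group of 3 samples had received 1 µM PD0332991 (palbociclib, an inhibitor of the kinases CDK4 and CDK6) for 24 h, and the other group of 3 had received vehicle for 24 h. Both groups grew in the same serum-containing medium, and the labels give no genotype, transgene or clonal origin for the line. Each sample was hybridized to its own Affymetrix array, 6 arrays in all, and the series design calls the samples biological triplicates without saying whether the cultures were separate experiments, so that a p-value here reflects the spread between 3 samples a group, which may be technical.

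The median intensity of all probe sets was 69.6 to 71.1 on the PD0332991 arrays and 71.3 to 72.7 on the vehicle arrays. Hybridization spike-ins, RNAs added in known amounts, averaged 10.13 to 10.18 (log2) on the PD0332991 arrays and 9.90 to 10.17 on the vehicle arrays, with vehicle replicate 1 the lowest. Of 10 epithelial markers 2 (Krt7 and Cldn4) were called higher and 0 lower (1 at an unadjusted p under 0.05 in limma), 3 (Krt19, Krt5 and Krt14) were below the median brightness, and the summed intensity of the list was 52215 to 53725 with PD0332991 and 49032 to 50324 with vehicle. Of 7 leukocyte markers 4 (Ptprc, Adgre1, Cd68 and Tyrobp) were called higher (both lists in a test of 1 probe set per gene over 18193 genes, of which 21.0% were called), and their summed intensity was 508 to 534 with PD0332991 and 399 to 421 with vehicle. With adjustment over all probe sets 2 of the 7 were called, and 2 of the 10 epithelial markers. When arrays were centred on the spike-ins, 0 of either list were called, with 3230 of all 45037 probe sets called. Without vehicle replicate 1 that centring again gave 0 of either list, with 2083 called in all. Cd68 and Adgre1 were above the median brightness and the other 5 leukocyte markers, Ptprc and Cd3e among them, below it. The part of these markers in the histone results was not tested. In bulk RNA, more transcripts per cell and more cells that carry the transcript cannot be told apart.

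The array table gives no detection call, so brightness is stated as the rank of a probe set's mean log2 value among all 45037. A fold change below is on the scale of log2(intensity + 16), which understates changes of dim probe sets, and adjusted p-values come from limma over all 45037 probe sets. The suffix of a probe set name shows how specific its probes are. Probe sets ending in _at were designed for 1 transcript, _a_at for transcripts of 1 gene, _s_at for transcripts that may come from several genes, and _x_at holds probes that resemble other transcripts. Of the 15 probe sets, 9 end in _at, 2 in _a_at, 2 in _s_at and 2 in _x_at.

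With PD0332991, 10 of the 15 probe sets were called higher and 1 lower, and 4 were not called at an adjusted p under 0.05. Of all probe sets tested, 14.2% were called, with 6.00% higher and 8.19% lower. When only the 22518 probe sets above the median brightness were tested, 9136 of them were called in either direction. Of the 12 histone probe sets among them, 9 were then called higher and 2 lower. The groups did not overlap in 12 of the 15, against 34.1% of all probe sets. The median log2 fold change was 0.34 for the 15 and -0.01 for all probe sets. Counted by gene, all probe sets of H1f2, H2ac19, H2aw, H2bc18, H2bc22 and H3c7 were called higher, 1 of the 2 probe sets of H2bc21 was called lower, and H1f4, H1f6 and H3c11 had no call. The genes were chosen with earlier results of these arrays known, so the counts are a description.

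**Figure D1:**
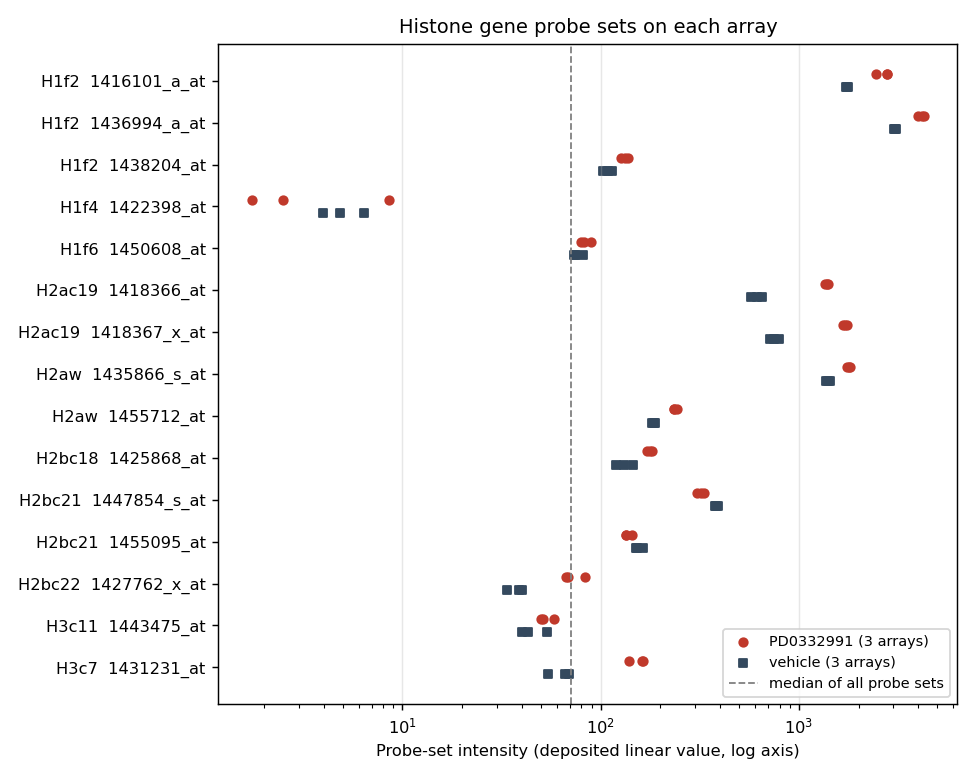
Intensity of the 15 histone probe sets on each of 6 arrays (log axis, deposited linear values), with the 3 PD0332991 arrays as circles above the 3 vehicle arrays as squares. The groups are apart in 12 of the 15 rows, and the dashed line marks the median of all probe sets, averaged over the arrays.

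H2ac19, a core H2A gene of the chromosome 3 cluster, rose on both of its probe sets. Its probe set 1418366_at had intensities of 1353, 1392 and 1408 on the PD0332991 arrays, against 571, 616 and 651 on the vehicle arrays. Every PD0332991 array was above every vehicle array, a 2.23-fold difference (log2 fold change 1.16 with SE 0.06, adjusted p = 0.000218). The second probe set, 1418367_x_at, had 1667, 1713 and 1747 with PD0332991, against 717, 747 and 795 with vehicle (log2 fold change 1.17, SE 0.05, adjusted p = 0.000146). Both probe sets thus gave nearly the same change, although the second is of the less specific type, and both come from the same deposited transcript. They ranked at the 85.1 and 87.2 percentiles of brightness.

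H2aw, the H2A gene of the small cluster on chromosome 11, rose less. Probe set 1435866_s_at had 1759, 1781 and 1802 with PD0332991, against 1404, 1438 and 1377 with vehicle, or 1.26-fold higher (log2 fold change 0.34, SE 0.04, adjusted p = 0.00522). The more specific 1455712_at, at the 66.6 percentile of brightness against 90.6 for the first, had 235, 235 and 244 with PD0332991, against 181, 186 and 188 with vehicle (log2 fold change 0.34, SE 0.04, adjusted p = 0.00534). The groups were apart on both, and both probe sets gave the same fold change. Probe set 1435865_at, annotated with H2aw and Trim17 together, was not called (log2 fold change 0.28, SE 0.07, adjusted p = 0.051), though its groups were apart. It stood at the 79.8 percentile of brightness.

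The promoters of H2ac19 and H2bc18 are shown because these genes lie in the same cluster on chromosome 3, and those of H1f2 and H1f4 because these close relatives stand at opposite ends of brightness. Histone promoters are known for CCAAT boxes, TATA boxes, an octamer element in H2B and some H2A promoters, and an H1 box in H1 promoters. The 250 bases before the annotated start are from RefSeq (GRCm38.p6), 5′ to 3′ on the gene's strand. Capitals mark exact matches on either strand to the letters CCAAT (the CCAAT box), to TATAAA (a form of the TATA box), to ATTTGCAT (the octamer) or to AAACACA (the H1 box). RefSeq promoters matched 8 of the 10 genes.
H2ac19 (chr3:96240375-96240624, minus strand): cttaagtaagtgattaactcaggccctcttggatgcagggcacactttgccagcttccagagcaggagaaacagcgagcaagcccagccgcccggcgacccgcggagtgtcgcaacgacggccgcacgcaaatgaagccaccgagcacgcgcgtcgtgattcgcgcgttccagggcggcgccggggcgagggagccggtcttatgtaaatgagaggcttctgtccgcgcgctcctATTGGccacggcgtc
H2bc18 (chr3:96269450-96269699, plus strand): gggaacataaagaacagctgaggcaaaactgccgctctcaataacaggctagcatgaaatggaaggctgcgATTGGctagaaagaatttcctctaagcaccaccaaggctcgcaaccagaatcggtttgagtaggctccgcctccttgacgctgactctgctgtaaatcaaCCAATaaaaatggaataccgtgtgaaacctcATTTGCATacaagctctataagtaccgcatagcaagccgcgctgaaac
H1f2 (chr13:23738557-23738806, plus strand): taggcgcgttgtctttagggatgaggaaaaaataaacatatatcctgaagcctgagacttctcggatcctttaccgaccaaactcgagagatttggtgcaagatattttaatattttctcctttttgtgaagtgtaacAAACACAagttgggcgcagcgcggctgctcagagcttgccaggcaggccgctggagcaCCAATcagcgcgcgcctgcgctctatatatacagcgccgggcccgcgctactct
H1f4 (chr13:23622559-23622808, minus strand): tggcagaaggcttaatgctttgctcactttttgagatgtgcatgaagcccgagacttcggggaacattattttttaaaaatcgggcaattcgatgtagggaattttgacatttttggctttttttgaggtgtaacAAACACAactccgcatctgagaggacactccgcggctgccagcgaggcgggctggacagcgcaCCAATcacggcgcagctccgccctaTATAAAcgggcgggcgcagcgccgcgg

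CCAAT was present in 8 of the 8 promoters, against 33.8% of all 32851 RefSeq promoter windows of that length. The H1 box was present in 3 of the 8, those of H1f2, H1f4 and H1f6, against 6.25% of all windows, and its first base lay 112, 115 and 114 bases before the start of those genes. The octamer was in 2 of the 8, H2bc18 and H2aw, against 1.60% of all windows. TATAAA was in 3 of the 8, against 12.4%, with its first base at -27 (H1f4), -147 (H3c11) and -212 (H2bc22) from the start. These TATAAA matches thus lay at unlike distances. Only the exact letters were searched, so similar stretches, such as tatatata in H1f2 and tataag in H2bc18, are not counted. A promoter without a match may therefore still have a TATA box. No 2 matches of different motifs overlapped. H1f2 and H1f4 thus carry the same H1 and CCAAT letters at nearly the same places while 1 was called and the other was not, a difference that was not tested. A match of letters is a description and says nothing of binding.

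Among the linker histone genes, all on chromosome 13, H1f2 had the highest signal (96.5 percentile of brightness). H1f2 encodes H1.2, a somatic linker histone. Its probe set 1436994_a_at had 3977, 4194 and 4270.2 with PD0332991, against 3026, 3073 and 3045 with vehicle, or 1.36-fold higher (log2 fold change 0.44, SE 0.05, adjusted p = 0.003). Probe set 1416101_a_at had 2442, 2768 and 2799 with PD0332991, against 1737, 1754 and 1774 with vehicle (log2 fold change 0.60, SE 0.06, adjusted p = 0.00352). The third, 1438204_at, stood at the 58.7 percentile of brightness, with 133, 138 and 127 with PD0332991, against 109, 103 and 114 with vehicle (log2 fold change 0.25, SE 0.05, adjusted p = 0.0339). The groups were apart on all 3, and the call on the third was lost when any 1 of the 6 arrays was left out (adjusted p = 0.0556 to 0.102).

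H1f4, which encodes the somatic linker histone H1.4, had a very low signal in both groups. Its only probe set, 1422398_at, had 2.50, 8.54 and 1.74 with PD0332991, against 6.42, 3.96 and 4.84 with vehicle (log2 fold change -0.07, SE 0.13, adjusted p = 0.791). The groups overlapped, and the probe set stood at the 8.0 percentile of brightness. H1f6 encodes the testis linker histone H1t, which is made in spermatocytes and is not a typical replication-dependent histone. Its probe set 1450608_at, at the 52.0 percentile of brightness, had 79.6, 82.2 and 89.5 with PD0332991, against 73.7, 81.1 and 74.0 with vehicle (log2 fold change 0.11, SE 0.06, adjusted p = 0.291), and the groups overlapped. Of 6 markers of spermatogenic cells limma called 0 (0 also at an unadjusted p under 0.05), all 6 were below the median brightness, and their summed intensity was 150 to 166 with PD0332991 and 136 to 164 with vehicle.

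The H2B genes did not move one way. H2bc22, of the chromosome 13 cluster, was dim on its only probe set, 1427762_x_at, with 68.6, 66.5 and 83.5 with PD0332991, against 38.8, 40.1 and 33.7 with vehicle. The groups were apart, with a 1.66-fold difference (log2 fold change 0.73 with SE 0.09, adjusted p = 0.00574), on a probe set of the least specific type at the 45.0 percentile of brightness. H2bc18 had 176, 182 and 172 with PD0332991, against 146, 120 and 132 with vehicle, on 1425868_at (log2 fold change 0.38, SE 0.07, adjusted p = 0.0233). That call was lost without PD0332991 replicate 1, 2 or 3 or vehicle replicate 3, with adjusted p = 0.0639 to 0.0796.

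H2bc21, an H2B gene of the chromosome 3 cluster, was the only one of the 10 with a call in the opposite direction. On 1447854_s_at it had 321, 308 and 332 with PD0332991, against 377, 381 and 390 with vehicle, or 1.19-fold lower (log2 fold change -0.25, SE 0.05, adjusted p = 0.0219). On 1455095_at it had 144, 134 and 134 with PD0332991, against 152, 152 and 163 with vehicle (log2 fold change -0.16, SE 0.05, adjusted p = 0.107). The groups were apart on both probe sets. The call on the first was lost without any 1 array other than PD0332991 replicate 3 (adjusted p = 0.0606 to 0.074).

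H2bc21 and H2ac19 are separated by 1 annotated gene on chromosome 3, and H2ac19 and H2bc18 by 5. The difference of log2(intensity + 16) between 2 probe sets was also taken on each array. H2ac19 (1418366_at) minus H2bc21 (1447854_s_at) was 2.02, 2.12 and 2.03 on the PD0332991 arrays, against 0.58, 0.67 and 0.72 on the vehicle arrays. The ranges did not overlap, and the means differed by 1.40. The exact two-sided permutation test gave p = 0.1, the smallest that 3 arrays against 3 allow. This pair was chosen after its values were seen.

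H3c7 and H3c11 encode core histone H3 and lie on chromosome 13. H3c7 had 140, 163 and 161 with PD0332991, against 54.2, 69.4 and 65.9 with vehicle, on 1431231_at. The groups were apart, with a 2.16-fold difference (log2 fold change 1.11 with SE 0.10, adjusted p = 0.00172). This probe set stood at the 55.7 percentile of brightness, close to the median. H3c11, on 1443475_at, had 58.0, 49.8 and 51.4 with PD0332991, against 42.8, 40.0 and 53.7 with vehicle (log2 fold change 0.17, SE 0.10, adjusted p = 0.322). Its groups overlapped, and it stood at the 43.6 percentile of brightness. One other clustered histone gene, H3c4, had a probe set of its own, with 75.5, 98.8 and 99.7 with PD0332991, against 68.1, 68.0 and 64.6 with vehicle (log2 fold change 0.36, SE 0.10, adjusted p = 0.0666).

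Clustered histone genes are so alike that most of their probe sets carry several gene symbols. The array had 19 such probe sets, against the 15 of the named genes, and none can be given to 1 gene. With PD0332991, 12 of the 19 were called higher and 1 lower, against 6.00% higher and 8.19% lower of all probe sets. Their median log2 fold change was 0.45. The 5 probe sets of H4, the family that no single-gene probe set covers, were all called higher, with log2 fold changes of 0.55 to 1.79. All 5 carry the same list of 13 H4 genes, so they are readings of a shared gene pool and not of separate genes. The one with the largest change, 1428014_at, had 179, 180.4 and 168 with PD0332991, against 43.1, 26.2 and 52.9 with vehicle. It stood at the 53.4 percentile of brightness. Of 5 H3 probe sets 2 were called higher (log2 fold changes 1.36 and 1.15), and of 6 H2B probe sets 4 were called higher (0.44 to 0.69).

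**Figure D2:**
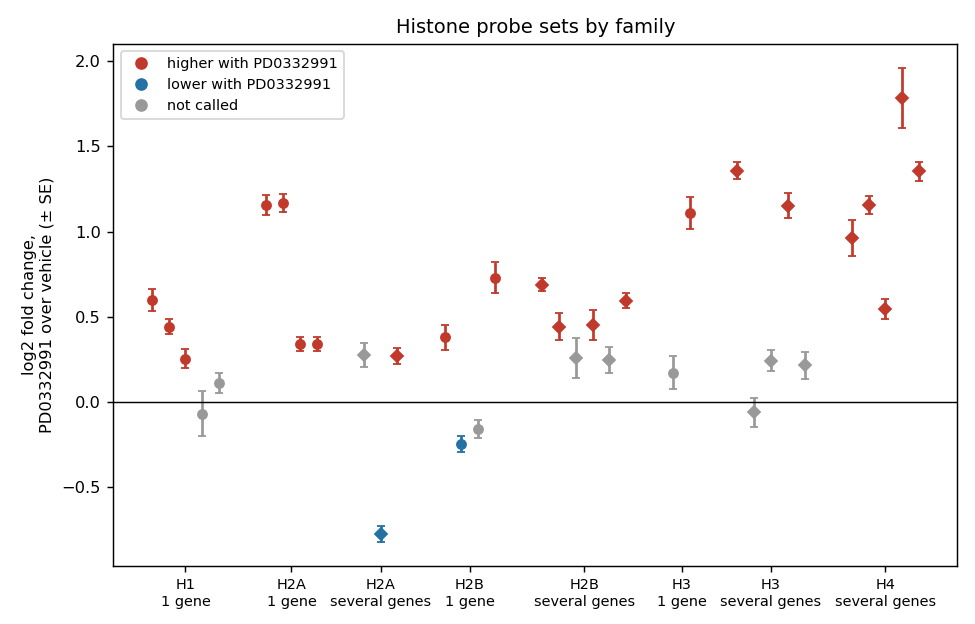
Log2 fold change of PD0332991 over vehicle (± SE, 3 arrays each) for histone probe sets with 1 gene symbol (circles) and several (diamonds), by family and coloured by call. All 5 H4 probe sets are called higher, while the H2A family holds both the H2ac19 rise of 1.16 and a 10-gene probe set at -0.78.

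The H2A family gave calls in both directions. Probe set 1438009_at, annotated with 10 H2A genes and at the 98.8 percentile of brightness, was lower with PD0332991, at 4816, 5218 and 5117, against 8591, 8664 and 8721 with vehicle (log2 fold change -0.78, SE 0.05, adjusted p = 0.00041). All 3 PD0332991 arrays were below all 3 vehicle arrays, a 1.71-fold decrease. It was called lower in every alternative run on it, with log2 fold changes of -0.89 to -0.74. Another, 1438815_at, annotated with H2ac19 and H2ac18 together, had 325, 341 and 355 with PD0332991, against 278, 281 and 279 with vehicle (log2 fold change 0.27, SE 0.05, adjusted p = 0.0181). Its call was lost after spike-in centring (adjusted p = 0.435) and without any 1 array other than PD0332991 replicate 1 (adjusted p = 0.054 to 0.0637).

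Within an array, H2ac19 (1418366_at) minus the 10-gene H2A probe set averaged -1.85 ± 0.04 with PD0332991 and -3.79 ± 0.08 with vehicle (SD, n = 3 each), so the means differed by 1.93 (exact two-sided permutation p = 0.1, the smallest possible). The same gene minus the probe set shared with H2ac18 averaged 1.98 ± 0.03 with PD0332991 and 1.09 ± 0.09 with vehicle (SD, n = 3 each, exact p = 0.1). In both cases the groups did not overlap. The contrasts were chosen after the values were seen.

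**Figure D3:**
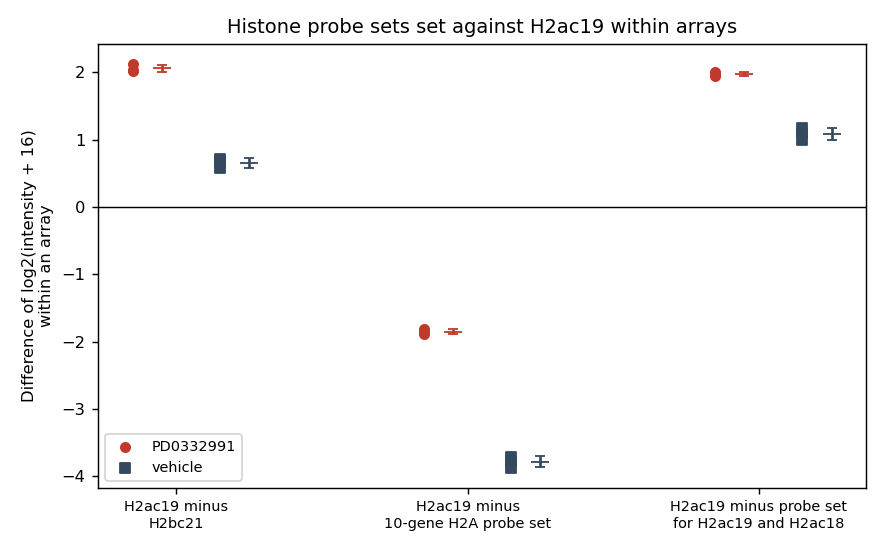
Difference of log2(intensity + 16) between H2ac19 (1418366_at) and 3 other histone probe sets on the same array, for 3 PD0332991 and 3 vehicle arrays, with mean and SD beside the points. In each pair the PD0332991 arrays lie above the vehicle arrays, by 1.40, 1.93 and 0.89.

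The scaling of the arrays mattered for the smaller changes. When arrays were centred on the spike-ins, the median log2 fold change of all probe sets was -0.12. In that setting 3230 of all 45037 probe sets were called in either direction. Of the 15 histone probe sets 5 were called higher and 0 lower (2 at an unadjusted p under 0.05 in limma). The 5 were both probe sets of H2ac19, 1416101_a_at of H1f2, H2bc22 and H3c7. Both H2aw calls were lost (adjusted p = 0.249 and 0.241), as were those of H2bc18 (0.256), the other probe sets of H1f2 (0.102 and 0.503) and H2bc21 (0.0783), whose log2 fold change became -0.36. Without vehicle replicate 1, the array with the low spike-ins, spike-in centring again gave 5 higher and 0 lower (1 at an unadjusted p under 0.05), with a median over all probe sets of -0.05. In that run 2083 of all 45037 probe sets were called in either direction. Of the probe sets with several symbols, 9 were higher and 1 lower under either spike-in setting.

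**Figure D4:**
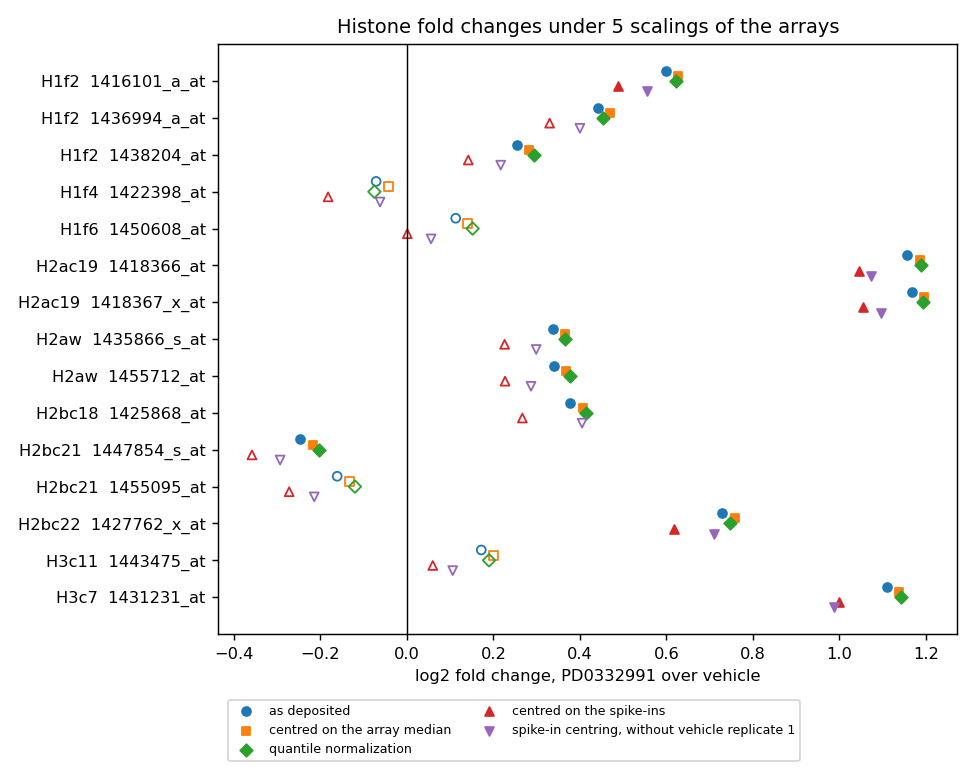
Log2 fold change of PD0332991 over vehicle for the 15 histone probe sets under 5 scalings of the arrays, with filled symbols for an adjusted p under 0.05 and open ones otherwise. The H2ac19 values stay between 1.05 and 1.20, while the H2aw values of 0.34 are called except after spike-in centring.

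The genes that act on histone mRNA and newly made histones moved mostly the other way. For these lists each gene was represented by its brightest probe set and tested over 18193 genes, of which 9.81% were called higher and 11.2% lower. Of 14 genes of histone gene transcription limma called 0 higher (0 also at an unadjusted p under 0.05) and 11 lower. Their log2 fold changes had a median of -0.25, against 0.01 over all genes. Ccna2, cyclin A2, was 2.98-fold lower (adjusted p = 5.47e-05) and Ccne2, a cyclin E whose kinase phosphorylates the histone gene activator NPAT, 2.60-fold lower (adjusted p = 6.98e-05). Of 23 genes of histone pre-mRNA 3′ processing and decay 0 were higher (0 also unadjusted) and 13 lower (median -0.19). Slbp, which encodes the stem-loop binding protein, had 1785 ± 17.6 with PD0332991 and 3035 ± 47.2 with vehicle (SD, n = 3 each, log2 fold change -0.76, adjusted p = 8.27e-05). Casp8ap2 (FLASH), part of the cleavage machinery, had a log2 fold change of -0.59 (adjusted p = 0.000707).

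Of 13 chaperones of replication-coupled histone deposition 1 was higher and 12 lower (median -0.56). Asf1b, an H3-H4 chaperone, was 2.27-fold lower (adjusted p = 7.38e-05), Mcm2, the helicase subunit that also binds H3-H4, 1.96-fold lower (adjusted p = 6.81e-05), and the importin Ipo4 1.31-fold higher (adjusted p = 0.00823). All 6 subunits of the MCM2-7 helicase were lower. Of 13 replication-independent histones 1 was higher and 5 lower. Cenpa, the centromeric H3, was 3.29-fold lower (adjusted p = 4.5e-05) and H2az2 1.84-fold lower (adjusted p = 9.23e-05). The probe sets taken for the H3.3 genes were called in opposite directions, H3f3b 3.05-fold higher (adjusted p = 0.00763) and H3f3a 1.28-fold lower (adjusted p = 0.0187). H3f3b had 613 ± 104 with PD0332991 and 194 ± 66.3 with vehicle (SD, n = 3 each), with the largest SE of this list (0.24). H3f3a had 226 ± 18.9 with PD0332991 and 292 ± 14.2 with vehicle. They stood at the 72.9 and 69.5 percentiles of brightness. Whether these 2 probe sets read the main transcripts of their genes was not tested. After spike-in centring, with adjustment over all probe sets, limma called 6 of 14 transcription genes, 5 of 23 processing genes, 8 of 13 chaperones, 6 of 6 helicase subunits and 5 of 13 replication-independent histones lower. Before centring the same adjustment gave 11 of 14, 12 of 23, 11 of 13, 6 of 6 and 5 of 13 lower. Spike-in centring without vehicle replicate 1 gave 6 of 14, 3 of 23, 7 of 13, 6 of 6 and 4 of 13 lower. Of all 45037 probe sets, the calls in either direction were 6391 before centring, 3230 after it and 2083 without vehicle replicate 1. Under both spike-in settings Ipo4 was no longer called higher.

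**Figure D5:**
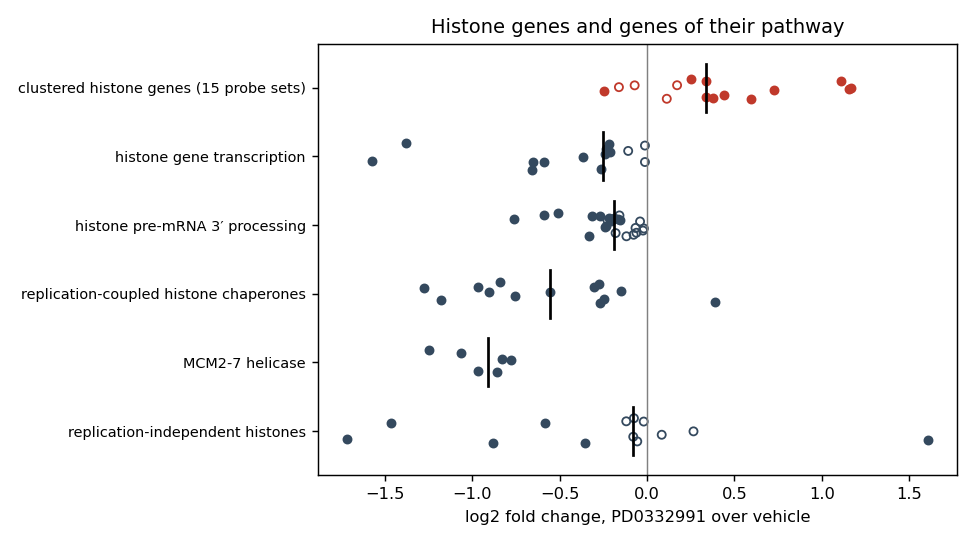
Log2 fold change of PD0332991 over vehicle for the 15 clustered histone probe sets and for 5 lists of related genes (1 probe set per gene), with filled symbols for an adjusted p under 0.05 and a bar at each median. The median is 0.34 for the histone probe sets and lies between -0.91 and -0.08 for the 5 lists.

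Over the 6 arrays, the genes whose log2 values followed the brightest histone probe set (1436994_a_at of H1f2) most closely were Rras2 (Pearson r = 0.9997), Pdgfa (0.9993) and Trim24 (0.9991), among probe sets brighter than the median. The points fall into 2 groups of 3, so that r mostly reflects the difference between them. The labels give the biotin labelling only as the standard Affymetrix procedure. Where labelling starts at a poly(A) tail it sees the polyadenylated part of these transcripts, and a change in that part cannot be told apart from a change in their total amount here.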

How the data were processed

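Total RNA of 6 samples was biotin-labelled and hybridized to Affymetrix arrays, per the labels' protocols. The values deposited by the authors are linear intensities, 45101 probe sets on each array. How they were summarised and scaled is not given in the sources used here, so a change in total RNA per cell may not be visible. The 64 control probe sets were left out. Symbols came from the platform annotation (1 symbol for 34945 probe sets, several for 932, none for 9160), which can be old, and all 10 histone symbols matched a RefSeq gene table (GRCm38.p6), used for names, chromosomes and gene order. The promoters come from a RefSeq table of the same assembly.

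Values were transformed to log2(intensity + 16) and PD0332991 was compared with vehicle by lmFit and eBayes of limma 3.58.1 (R 4.3.3), two-sided, without a replicate block, with Benjamini-Hochberg adjustment over 45037 probe sets and a threshold of 0.05. For gene lists the brightest probe set per gene was tested over 18193 genes. Within-array differences used exact permutation tests. Tables and plots were made in Python 3.11.15 with pandas 2.3.3 and matplotlib 3.10.9. The code was tested on simulated data.

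The members and lists were chosen with earlier results of these data known. Named were all probe sets of the 10 genes, other clustered histone probe sets, for each list at most 2 genes that rose and 2 that fell with the smallest p, and the 3 genes most correlated with the brightest histone probe set. H3f3a and the markers of other cell types were named after their values were seen. Alternatives tried were a block for replicate number, quantile scaling, median centring, centring on 18 spike-in probe sets (with or without vehicle replicate 1), pseudocounts of 1 and 64, a filter on dim probe sets, 1 value per gene, leaving out less specific probe sets, other variance models, array weights and leaving out each array. Same-numbered samples did not deviate together over all probe sets (correlations 0.0048, -0.0493 and 0.0394). Deviations from means of 3 arrays cannot exclude that the numbers pair them.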

Additional observations from a re-analysis of the deposited data

How the results depend on the processing

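Against 10 histone probe sets higher, 1 lower and 6391 of all probe sets called, the values were as follows. With a replicate block, 7 were higher, 0 lower and 2305 called in all, and whether the numbers pair the samples is not known. Spike-in centring gave 5, 0 and 3230, and 5, 0 and 2083 without vehicle replicate 1. With only the brighter 22518 probe sets, 9 of 12 were higher, 2 lower and 9136 called in all. The second lower call was 1455095_at of H2bc21 (adjusted p = 0.028). Taking 1 probe set per gene gave 6 genes higher and 3820 calls, and averaging the probe sets of each gene 6 and 3031; both test genes, so fewer values. Without the _x_at, _s_at and _a_at probe sets, 5 were higher, 0 lower and 4127 called, with fewer probe sets. Trend and robust variances gave 9693 calls in all. Leaving out 1 array gave 8 to 9 higher, 0 to 1 lower and 3439 to 3753 in all, with fewer samples. Quantile normalization, median centring, array weights and pseudocounts of 1 and 64 kept 10 and 1. Of all probe sets, these settings called 6768, 5992, 6430, 5211 and 8478, in that order. For single probe sets, 223 of the values under alternatives kept direction and call, 31 lost the call, 1 gained it, and 1 changed sign: H1f4, not called in any setting, whose log2 fold change ran from -0.216 to 0.018 when 1 array was left out and was 0.018 without PD0332991 replicate 3. H2ac19 and H3c7 kept their calls in every alternative run (log2 fold changes 1.05 to 1.21 and 0.78 to 1.28). The call of H2bc22 ended under the replicate block (adjusted p = 0.0534). Apart from the alternatives' own construction, the cause of these changes was not tested. Low signal limits the precision for H1f4, H3c11 and H2bc22, which are below the median brightness. For H3c7, at the 55.7 percentile, the log2 fold change was 0.78 with a pseudocount of 64 and 1.28 with 1.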
